A study of Homo sapiens with 30 samples.

Results

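Glycolysis genes and targets of the hypoxia-inducible factors (HIFs) were followed in A549 cells, a human lung carcinoma line, exposed to ethanol extracts of 4 herbal formulas. The list held 40 genes, picked by textbook role at a time when earlier results of these data were known, and each was matched by symbol to a single Ensembl identifier among the 60675 in the table. All 40 passed the filter on low counts, which kept 17459 genes.

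The groups were Soshiho-tang, Yijin-tang, Okbyeongpung-san and Soyo-san ethanol extracts at 500, 100 and 20 µg/mL, each for 24 h, and vehicle for 24 h. Vehicle was 0.1% DMSO per the sample labels and 2% DMSO in the series text. Soshiho-tang, Yijin-tang and vehicle had 3 libraries a group, Okbyeongpung-san had 2 a dose (replicates 2 and 3) and Soyo-san had 1 a dose, so no test could be made for Soyo-san. The titles carry a batch letter whose meaning is not stated: the third Okbyeongpung-san replicates and the Soyo-san libraries carry D, and all others carry E. Every group is the same cell line, and no label says that replicates came from separate cultures, so p-values here measure the spread between libraries, which may be technical.

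HIFs are transcription factors with an alpha subunit that is hydroxylated and degraded while oxygen is present. When it escapes degradation, it pairs with ARNT and binds short sites near genes for glucose uptake, glycolysis, lactate export, blood vessel growth and pH control. Many carcinoma lines, A549 included, run glycolysis in the presence of oxygen, so these enzymes are abundant in them without hypoxia.

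Libraries held 19833144 to 38008463 counts, with the 3 vehicle libraries lowest (19833144 to 22327652, against at least 24560759 in any treated library). The 13 mitochondrial mRNAs took 10.5% to 10.9% of counts in vehicle and 6.22% to 9.89% in treated libraries, so both values move with every comparison against vehicle, and their part in those comparisons was not tested. All 6 epithelial markers were detected in every group and their sum was 6939 to 8833 CPM (counts scaled to a common TMM-adjusted library total) in treated libraries and 7997 to 8334 in vehicle. Alveolar type 2 markers summed to at most 1.38 CPM, endothelial to at most 0.532 and red blood cell to at most 0.351 in treated libraries, while 2 of 6 immune markers averaged at least 1 CPM, with a list sum of 14.9 to 17.4 CPM in vehicle and 9.35 to 22.7 in treated libraries, and CD3E and MS4A1 were at 0 in every library. The part of these lists in the results was not tested. Of 6 fibroblast markers, 2 were above 1 CPM on average, and their list summed to 22.1 to 27 CPM in Soshiho-tang at 500 µg/mL against 35.6 to 38.3 in vehicle, a difference whose part in the results was not tested. The Okbyeongpung-san libraries at 500 µg/mL stood farthest apart of all replicates, with a chi-square per degree of freedom of 42.3 against 2.81 to 19.2 between other treated replicates and 2.07 to 2.21 between vehicle libraries. Replicate 2 of this group held the highest total (38008463) and the highest treated mitochondrial share (9.89%, against 6.73% in replicate 3). The part of these values in the Okbyeongpung-san results was not tested.

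In vehicle the enzymes and transporters covered a wide range of abundance. Per kilobase of the longest annotated transcript, GAPDH was highest at 3511 CPM, followed by PKM at 1086, ENO1 at 875, LDHA at 759 and LDHB at 726. TPI1 and ALDOA were at 524 and 476 on that scale. HIF1A itself was at 128 and its paralog EPAS1 at 50.3. The lowest members were HK2 at 0.22, PDK1 at 0.77, ALDOC at 0.80, ANKRD37 at 1.15 and CA9 at 1.29, so that the inducible isozymes of hexokinase and aldolase sat far below HK1 (21.4) and ALDOA.

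To show what the proximal promoters of the responding members look like, the 250 bases before the RefSeq transcription start (GRCh38.p14) are printed for the 4 called members with the largest change between 500 and 20 µg/mL of Soshiho-tang that had an entry. EGLN3, CA9 and ADM fell and HK2 rose. Each line runs 5′ to 3′ on the gene's strand, and capitals mark the core of the HIF-binding site, ACGTG or GCGTG, or its reverse complement, CACGT or CACGC.
EGLN3, chr14:33951075-33951324, minus strand: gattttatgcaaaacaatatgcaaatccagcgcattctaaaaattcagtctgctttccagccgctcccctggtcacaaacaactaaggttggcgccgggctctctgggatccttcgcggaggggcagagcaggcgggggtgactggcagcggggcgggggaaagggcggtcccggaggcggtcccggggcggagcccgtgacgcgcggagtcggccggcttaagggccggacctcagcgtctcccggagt
CA9, chr9:35673678-35673927, plus strand: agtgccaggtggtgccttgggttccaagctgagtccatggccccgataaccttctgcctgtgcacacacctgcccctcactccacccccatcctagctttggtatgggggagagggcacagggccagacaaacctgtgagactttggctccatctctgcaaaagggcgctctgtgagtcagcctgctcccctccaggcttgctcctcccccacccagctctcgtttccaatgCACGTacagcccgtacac
ADM, chr11:10304823-10305072, plus strand: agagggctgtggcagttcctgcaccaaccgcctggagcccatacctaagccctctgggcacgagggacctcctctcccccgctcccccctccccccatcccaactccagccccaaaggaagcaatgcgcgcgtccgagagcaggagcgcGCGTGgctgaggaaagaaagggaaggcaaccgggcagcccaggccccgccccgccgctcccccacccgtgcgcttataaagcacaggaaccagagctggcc
HK2, chr2:74833877-74834126, plus strand: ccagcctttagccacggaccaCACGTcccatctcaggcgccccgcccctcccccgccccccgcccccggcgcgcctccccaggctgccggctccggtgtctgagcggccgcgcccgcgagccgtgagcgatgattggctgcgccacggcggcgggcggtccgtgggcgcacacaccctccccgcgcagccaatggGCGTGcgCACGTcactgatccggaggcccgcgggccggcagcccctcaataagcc
The core lies at 3 positions in HK2, at 1 position each in CA9 and ADM and at none in EGLN3. An E-box, CACGTG, contains the core on both strands, so a match is not specific to HIF. In this window 43.2% of all 35116 RefSeq promoters held at least 1 core, and of the 35 members with an entry 22 did (62.9%). VEGFA, SLC2A3, SLC16A1, BNIP3L and NDRG1 had no entry. By response to Soshiho-tang, the core was present in 3 of 4 members that were higher, 8 of 14 that were lower and 11 of 17 that were not called, which is a description of these letters and says nothing on binding.

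The comparison of 500 with 20 µg/mL asks how the genes moved with dose within an extract. In Soshiho-tang 21 of the 40 members changed: 5 were higher and 16 lower at 500 µg/mL, by edgeR's quasi-likelihood test with Benjamini-Hochberg adjustment over all genes. VEGFA, the vascular endothelial growth factor, and EPAS1, the HIF-2 alpha subunit, were among the 5 that rose, while EGLN3, CA9, SLC2A3 and ADM had the largest falls. Over all tested genes 20.6% were called in this comparison (10.3% higher, 10.2% lower). The median log2 fold change was -0.16 for the members and 0.0033 for all genes, and members ranged from -0.93 to 0.76. In bulk RNA, a smaller share of cells with a transcript and less of it per cell cannot be told apart. In Yijin-tang 1 member was lower and none higher (background 0.705% called, 0.286% higher and 0.418% lower). In Okbyeongpung-san 1 was higher and 1 lower (background 1.59% called, 0.979% higher and 0.613% lower). The background moved with the choice of Okbyeongpung-san libraries, and the count of 2 moved with it. Without replicate 3 at 500 µg/mL 14 members and 22.6% of all genes were called, and without any of the other 3 libraries 1 member and 0.217% to 0.34%. Within title batch E 4 members and 7.91% of genes were called, and within batch D no member and 0.129%.

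**Figure D1:**
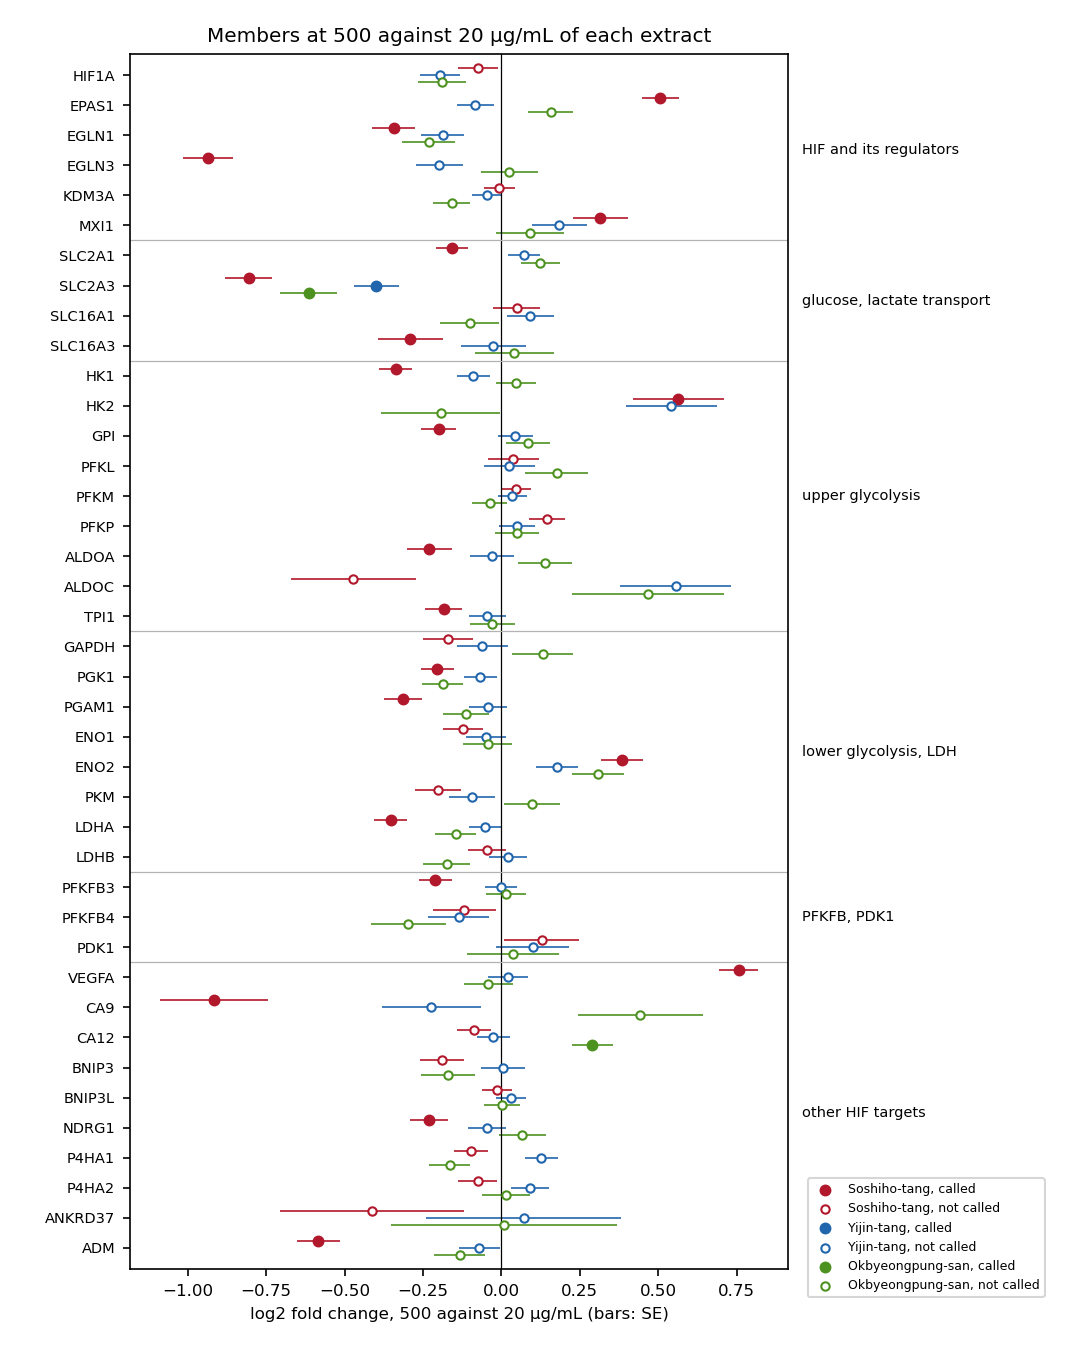
Log2 fold change of each of the 40 genes at 500 against 20 µg/mL (x axis) in Soshiho-tang, Yijin-tang and Okbyeongpung-san, with bars of 1 standard error and genes (y axis) ordered by role. Filled points are called; 21 are filled for Soshiho-tang, 1 for Yijin-tang and 2 for Okbyeongpung-san.

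Of the HIF alpha subunits, EPAS1 rose and HIF1A did not pass the test between 500 and 20 µg/mL of Soshiho-tang. HIF1A, the HIF-1 alpha subunit, was at 446, 411 and 457 CPM in the 3 Soshiho-tang libraries at 500 µg/mL and at 443, 462 and 481 at 20 µg/mL. These groups overlap, and the difference did not pass the test (log2 fold change -0.07, SE 0.06, adjusted p = 0.45). EPAS1 (chromosome 2, 46293667 to 46386703, plus strand, GRCh38) was at 348, 349 and 357 CPM at 500 µg/mL, at 244, 248 and 251 at 20 µg/mL and at 256, 269 and 255 in vehicle. All 3 high-dose libraries lay above all 27 other libraries, the highest of which was at 272. The rise over 20 µg/mL was 0.51 (SE 0.06, adjusted p = 7.88e-07). At 100 µg/mL of Soshiho-tang it was at 234 to 272 CPM. EPAS1 did not pass the test with dose in Yijin-tang (-0.08, SE 0.06, adjusted p = 0.854) or Okbyeongpung-san (0.16, SE 0.07, adjusted p = 0.265).

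Both prolyl hydroxylases on the list, the enzymes that mark HIF alpha subunits for degradation and are themselves HIF targets, fell in Soshiho-tang. EGLN3 (chromosome 14, 33924231 to 34462774, minus strand), whose promoter opens the printed set, was at 5.75, 5.16 and 6.36 CPM at 500 µg/mL, against 11.4, 11.1 and 10.6 at 20 µg/mL and 10.3, 10.9 and 9.93 in vehicle. No other library, of any extract, came as low. The fall was -0.93 (SE 0.08, adjusted p = 5.16e-09), and between 20 and 100 µg/mL the level stayed between 9.93 and 11.4 CPM. The annotated span of EGLN3 holds SPTSSA on the same strand, with 112136 counts over all libraries against 9138 for EGLN3, so the split of reads between them is uncertain. SPTSSA fell too in this comparison, by 0.46 (SE 0.08, adjusted p = 8.01e-05), and its part in the EGLN3 value was not tested. EGLN1, the main hydroxylase in most cells, was at 132, 128 and 126 CPM at 500 µg/mL and at 171, 151 and 169 at 20 µg/mL, which do not overlap. Its fall was -0.34 (SE 0.07, adjusted p = 0.00073). EGLN1 was also lower at 500 than at 20 µg/mL, without overlap, in the other replicated extracts, but was not called there. Yijin-tang gave 141, 134 and 145 CPM against 168, 160 and 150, and Okbyeongpung-san 125 and 154 against 160 and 167. The single Soyo-san libraries were at 132 and 172 CPM. The other 2 genes of this role split: MXI1, a MAX partner that opposes MYC, rose by 0.32 (SE 0.09, adjusted p = 0.0111), with 10.7, 11.3 and 12.8 CPM at 500 µg/mL against 10.2, 8.41 and 9.54 at 20 µg/mL, and the histone demethylase KDM3A was at -0.01 (SE 0.05). The MXI1 call was lost without replicate 3 at 500 µg/mL and without replicate 2 at 20 µg/mL, at adjusted p up to 0.0845.

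Of the 4 transporters, the neuronal-type glucose carrier SLC2A3 (GLUT3; chromosome 12, 7919230 to 7936275, minus strand) changed most, and it is the only member called lower between 500 and 20 µg/mL in each of the 3 replicated extracts. In Soshiho-tang it was at 24.6, 23.1 and 26.3 CPM at 500 µg/mL and at 40.3, 44.7 and 44.3 at 20 µg/mL. In Yijin-tang the values were 30.6, 34.3 and 32.8 against 39.1, 45.1 and 44.5, and in Okbyeongpung-san 25.6 and 29.2 against 42.5 and 41.1. In no extract did the 2 doses overlap. The falls were -0.81 (SE 0.07, adjusted p = 1.71e-08), -0.40 (SE 0.07, adjusted p = 0.00422) and -0.61 (SE 0.09, adjusted p = 0.000438). With only the compared groups in the fit, SLC2A3 was not called in Yijin-tang or in Okbyeongpung-san. How many of all genes were called lower in all 3 extracts was not counted. Within title batch E the Okbyeongpung-san fall was -0.72, and within batch D -0.50, with 1 Okbyeongpung-san library a dose in each of these fits. The single Soyo-san libraries were at 34.2, 43.1 and 47.0 CPM at 500, 100 and 20 µg/mL.

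The ubiquitous glucose carrier SLC2A1 (GLUT1) was at 177, 176 and 174 CPM in vehicle. In Soshiho-tang it was at 176, 174 and 171 CPM at 500 µg/mL, which overlaps vehicle, and at 193, 200 and 187 at 20 µg/mL. The fall between the doses was -0.16 (SE 0.05, adjusted p = 0.0322). Leaving out any of 5 of the 6 libraries, or the filter on low counts, lost that call. SLC16A3 (MCT4), which exports lactate, was at 62.4, 62.5 and 69.3 CPM in vehicle. It was at 66.5, 66.5 and 59.6 CPM at 500 µg/mL, which overlaps vehicle, and at 87.9, 81.9 and 66.0 at 20 µg/mL. The 500 and 20 µg/mL groups overlap too. It was called at -0.29 (SE 0.10, adjusted p = 0.0491), a call that was lost without any of 5 of the 6 libraries, with adjusted p up to 0.249. SLC16A3 overlaps CSNK1D on the opposite strand, and the strand setting of the counting is not given in the sources used here. SLC16A1 (MCT1), a carrier of lactate in both directions, was at 0.05 (SE 0.08).

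Among the 17 enzymes from hexokinase to lactate dehydrogenase, 7 were lower, 2 were higher and 8 did not pass the test in Soshiho-tang. Of all genes tested, 10.2% were called lower and 10.3% higher between 500 and 20 µg/mL. The median log2 fold change of the 17 was -0.18. In the upper steps, HK1, the constitutive hexokinase, was at 73.9, 71.5 and 79.4 CPM at 500 µg/mL and at 91.3, 98.1 and 94.7 at 20 µg/mL. HK2, the inducible hexokinase (chromosome 2, 74833981 to 74893359, plus strand), moved the other way, with 2.10, 2.33 and 1.81 CPM against 1.63, 1.32 and 1.28. Neither pair of groups overlaps. HK1 fell by 0.34 (SE 0.05, adjusted p = 4.13e-05) and HK2 rose by 0.56 (SE 0.15, adjusted p = 0.00654). The HK2 rise rests on 54 to 66 counts a library at 500 µg/mL and 41 to 44 at 20 µg/mL, and it was lost without the filter, with DESeq2 and without replicate 2 at 500 µg/mL (adjusted p up to 0.0731).

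GPI, which converts glucose 6-phosphate to fructose 6-phosphate, was at 880, 866 and 809 CPM at 500 µg/mL and at 1010, 986 and 940 at 20 µg/mL. Aldolase A (ALDOA) was at 1016, 965 and 942 CPM against 1171, 1195 and 1062, and triosephosphate isomerase (TPI1) at 890, 880 and 903 against 1012, 1026 and 998. For each of the 3 genes the high-dose libraries lay below the low-dose ones, and for ALDOA and TPI1 they lay below all 27 other libraries. The falls were -0.20 (SE 0.06, adjusted p = 0.0127) for GPI, -0.23 (SE 0.07, adjusted p = 0.022) for ALDOA and -0.18 (SE 0.06, adjusted p = 0.0274) for TPI1. They are small, and leaving out a library lost the call of GPI in 3 of 6 cases, of ALDOA in 4 and of TPI1 in all 6. The phosphofructokinase subunits, which set the committed step, did not pass the test: PFKL was at 0.04, PFKM at 0.05 and PFKP at 0.15 (adjusted p = 0.0752 for PFKP).

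In the lower steps, LDHA, which turns pyruvate into lactate (chromosome 11, 18394388 to 18408425, plus strand), was at 1516, 1538 and 1724 CPM at 500 µg/mL and at 2009, 2041 and 2055 at 20 µg/mL. Its fall of -0.35 (SE 0.05, adjusted p = 2.6e-05) was the largest of the abundant enzymes. PGAM1, the phosphoglycerate mutase, was at 424, 411 and 400 CPM against 541, 515 and 482, and phosphoglycerate kinase PGK1 was at 512, 499 and 512 against 587, 595 and 574. No high-dose library reached a low-dose one for LDHA, PGAM1 or PGK1. PGAM1 fell by 0.31 (SE 0.06, adjusted p = 0.000519) and PGK1 by 0.20 (SE 0.05, adjusted p = 0.00716). ENO2, the enolase typical of neurons, rose by 0.39 (SE 0.07, adjusted p = 0.000167), from 31.2, 33.9 and 32.8 CPM to 39.3, 44.8 and 43.7. The main enolase ENO1 was at -0.12 (SE 0.06, adjusted p = 0.196) and the LDHB subunit at -0.05 (SE 0.06).

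GAPDH, often taken as a reference gene, was at 5865, 5831 and 6200 CPM at 500 µg/mL of Soshiho-tang, at 6431, 7084 and 6622 at 20 µg/mL and at 6434, 6717 and 6599 in vehicle. The 3 high-dose libraries lay below all of these 6 libraries. The difference from 20 µg/mL was -0.17 (SE 0.08) and did not pass the test (adjusted p = 0.145). Pyruvate kinase PKM came closer, at -0.20 (SE 0.07, adjusted p = 0.0512). GAPDH was called lower under 3 of 12 alternatives (no low-count filter, a fit on the compared groups alone, and the offset for length and GC content) and PKM under 5, with adjusted p down to 0.0276 and 0.00381. The GAPDH libraries of Okbyeongpung-san at 500 µg/mL were at 7751 CPM in replicate 2 and 6239 in replicate 3.

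Of the 3 genes that set the branch between glycolysis and oxidation, PFKFB3, which makes the activator of phosphofructokinase, was at 423, 397 and 383 CPM at 500 µg/mL and at 480, 479 and 433 at 20 µg/mL. It fell by 0.21 (SE 0.05, adjusted p = 0.00453), with no overlap between the doses. In vehicle PFKFB3 was at 418, 429 and 432 CPM, which overlaps the 500 µg/mL group. Its paralog PFKFB4 was at -0.12 (SE 0.10), and PDK1, the kinase that keeps pyruvate out of the citric acid cycle, at 0.13 (SE 0.12).

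The remaining 10 HIF targets, which act outside glycolysis, gave 1 rise and 3 falls in Soshiho-tang. The shares of all genes called between 500 and 20 µg/mL were 10.3% higher and 10.2% lower. VEGFA (chromosome 6, 43770184 to 43786487, plus strand) was at 52.7, 62.4 and 63.1 CPM at 500 µg/mL, at 34.3, 35.6 and 35.6 at 20 µg/mL and at 37.8, 37.7 and 36.2 in vehicle. The highest of the other 27 libraries was at 40.5, so all 3 stood clear of the series. The rise of 0.76 (SE 0.06, adjusted p = 3.04e-09) was the largest of the members. At 100 µg/mL VEGFA was at 34.1, 33.5 and 36.7 CPM, so the whole rise lay between 100 and 500 µg/mL.

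ADM, the vasodilator peptide adrenomedullin (chromosome 11, 10304680 to 10307397, plus strand), went the opposite way to VEGFA, with 34.1, 32.1 and 30.3 CPM at 500 µg/mL against 47.9, 50.8 and 45.8 at 20 µg/mL. It fell by 0.58 (SE 0.07, adjusted p = 6.36e-07), and the high-dose libraries lay below all 27 others. CA9, the surface carbonic anhydrase widely used as a hypoxia marker (chromosome 9, 35673856 to 35681159, plus strand), was at 1.79, 1.24 and 1.34 CPM at 500 µg/mL and at 2.7, 2.97 and 2.53 at 20 µg/mL. Its fall of -0.92 (SE 0.17, adjusted p = 0.000392) rests on 35 to 46 counts a library at 500 µg/mL and 71 to 99 at 20 µg/mL. CA9 overlaps ARHGEF39 on the opposite strand, with 16773 counts over all libraries against 2117, so the assignment of its reads is uncertain. ARHGEF39 fell by 0.46 (SE 0.07, adjusted p = 1.2e-05) in this comparison, and its part in the CA9 value was not tested. The stress-response gene NDRG1 was at 40.8, 44.0 and 45.5 CPM against 51.5, 51.9 and 49.7, and it fell by 0.23 (SE 0.06, adjusted p = 0.00835). NDRG1 lost its call without replicate 1 at 500 µg/mL and without replicate 2 at 20 µg/mL.

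The other 6 of these targets did not pass the test. CA12, a second surface carbonic anhydrase, was at -0.09, the mitophagy receptors BNIP3 and BNIP3L at -0.19 and -0.01, the collagen prolyl hydroxylase subunits P4HA1 and P4HA2 at -0.10 and -0.08, and ANKRD37 at -0.41 with an SE of 0.29. The BNIP3 value was near the threshold (adjusted p = 0.0589), and it was called lower under 6 of 12 alternatives, with adjusted p from 0.0142 to 0.261. In CA12 the change was in another extract: Okbyeongpung-san gave 494 and 452 CPM at 500 µg/mL against 384 and 389 at 20 µg/mL, a rise of 0.29 (SE 0.07, adjusted p = 0.0201). Within title batch E that rise was 0.37, and within batch D 0.21, with 1 Okbyeongpung-san library a dose in each of these fits. The CA12 call was lost with only the compared groups in the fit.

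**Figure D2:**
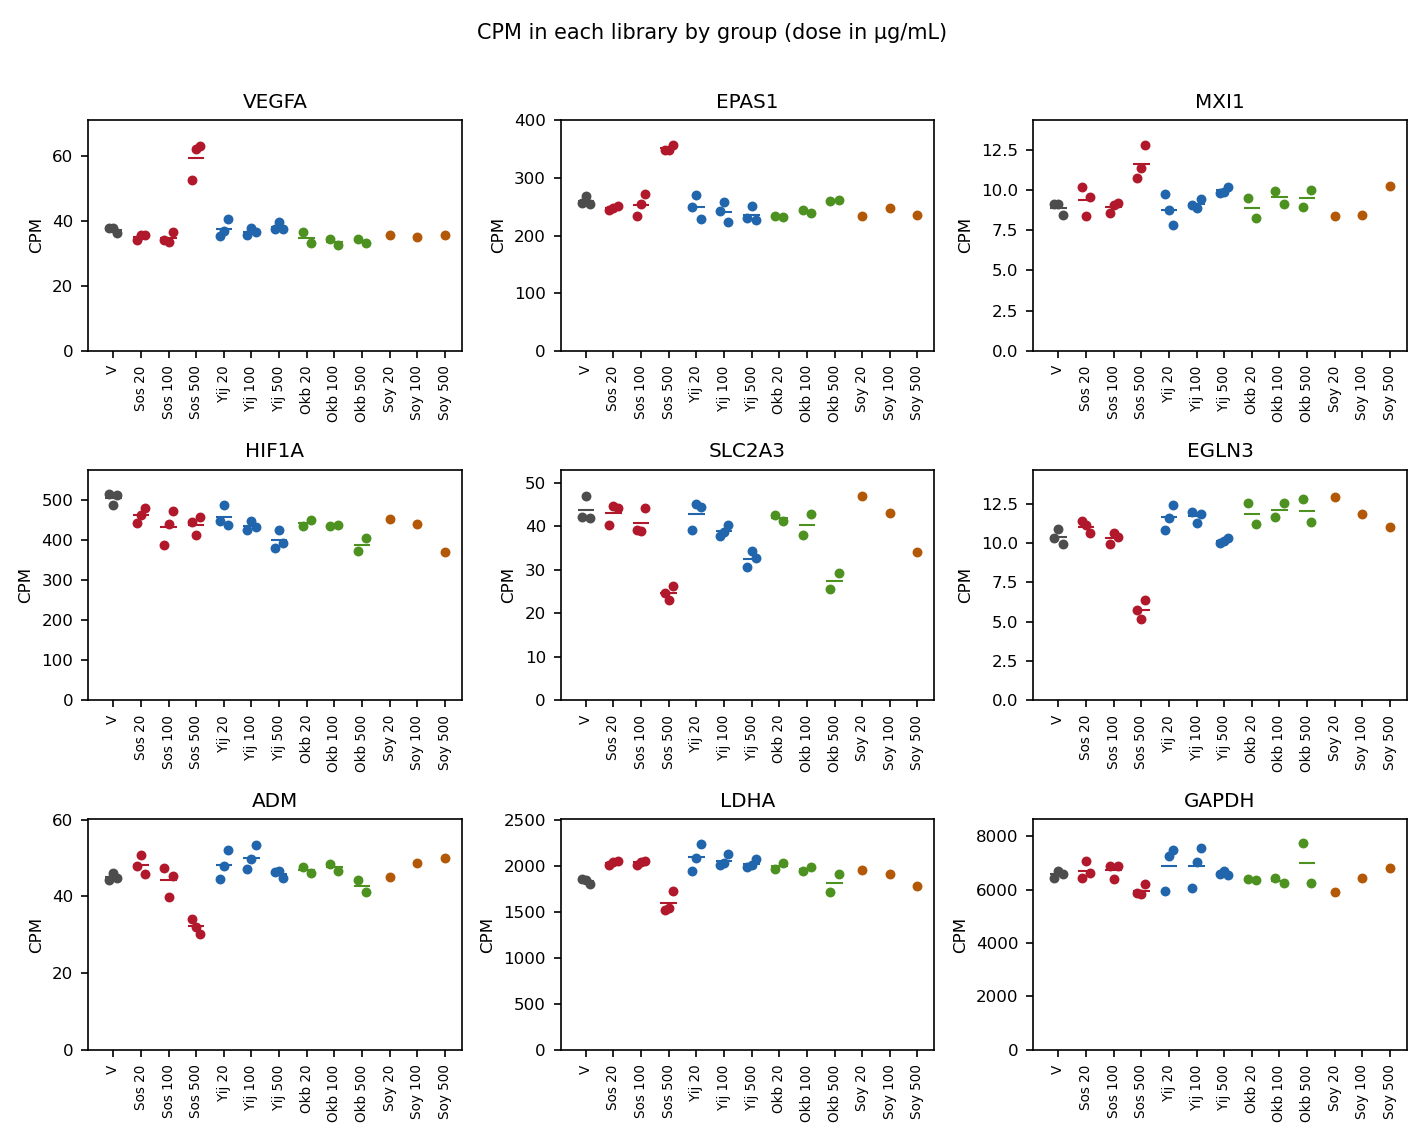
CPM (y axis, from 0) of 9 genes in each of the 30 libraries by group (x axis: V for vehicle, then Soshiho-tang, Yijin-tang, Okbyeongpung-san and Soyo-san at 20, 100 and 500 µg/mL); points are libraries and bars are means of groups with at least 2. The 3 Soshiho-tang libraries at 500 µg/mL stand above all others in VEGFA, EPAS1 and MXI1 and below all others in EGLN3 and ADM, while SLC2A3 is lower at 500 than at 20 µg/mL in all 4 extracts.

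By position, the 3 Soshiho-tang libraries at 500 µg/mL lay above all 27 others for 3 members (VEGFA, EPAS1 and MXI1) and below all 27 for 6 (HK1, ALDOA, TPI1, PGAM1, EGLN3 and ADM). Of all 17459 genes tested, 6.05% lay above and 4.87% below in this way. Against 20 µg/mL alone, the high-dose libraries lay above for 6 members and below for 20, while 14 overlapped. Over all genes 19.1% lay above and 19.8% below, in a comparison that called 20.6% of them. In Yijin-tang 4 members lay above and 4 below (6.17% and 5.81% of all genes, with 0.705% called). In Okbyeongpung-san, where groups of 2 libraries separate more easily, 5 lay above and 12 below (19% and 19.7% of all genes, with 1.59% called). Group means stood in descending order from 20 through 100 to 500 µg/mL for 18 members of Soshiho-tang and in ascending order for 4, against 24.7% and 24.5% of all genes. The corresponding counts were 11 and 10 in Yijin-tang (20.1% and 20.4% of all genes) and 12 and 12 in Okbyeongpung-san (21.6% and 21.5%).

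Whether the dose effect itself differed between extracts was tested as a difference of log2 fold changes. Soshiho-tang differed from Yijin-tang for 7 members, 2 in the upward and 5 in the downward direction (background 4.04% called, 2.27% higher and 1.76% lower). It differed from Okbyeongpung-san for 9, again 2 upward and 7 downward (background 7.01%, 3.28% and 3.73%). VEGFA, EPAS1, EGLN3 and ADM were called in both. The 2 differences share the Soshiho-tang libraries, so they are not independent.

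The VEGFA dose effect in Soshiho-tang exceeded that of Yijin-tang by 0.74 (SE 0.09, adjusted p = 7.2e-06) and that of Okbyeongpung-san by 0.80 (SE 0.10, adjusted p = 1.39e-05). For EGLN3 the differences were -0.74 (SE 0.11, adjusted p = 0.00011) and -0.96 (SE 0.12, adjusted p = 1.4e-05). In Yijin-tang EGLN3 was at 9.98, 10.1 and 10.3 CPM at 500 µg/mL and at 10.8, 11.6 and 12.4 at 20 µg/mL, and in Okbyeongpung-san at 12.8 and 11.3 against 12.5 and 11.2. These levels are all above those of Soshiho-tang at 500 µg/mL. LDHA, SLC2A3 and ALDOC were called against Yijin-tang and not against Okbyeongpung-san, and the reverse held for SLC2A1, HK1, ALDOA, CA9 and CA12. Whether these genes differ between Yijin-tang and Okbyeongpung-san in their dose effect was not tested. Within title batch E, where Okbyeongpung-san has 1 library a dose, 13 members differed from Okbyeongpung-san, 8 of them among the 9, and EPAS1 was not (0.36, adjusted p = 0.07). Without the Okbyeongpung-san library at 500 µg/mL of replicate 2 the count of 9 was 3, without replicate 3 it was 16, and without replicate 3 at 20 µg/mL it was 5. The share of all genes called was 10.8% within batch E and 2.73%, 20% and 2.96% in these 3 fits.

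**Figure D3:**
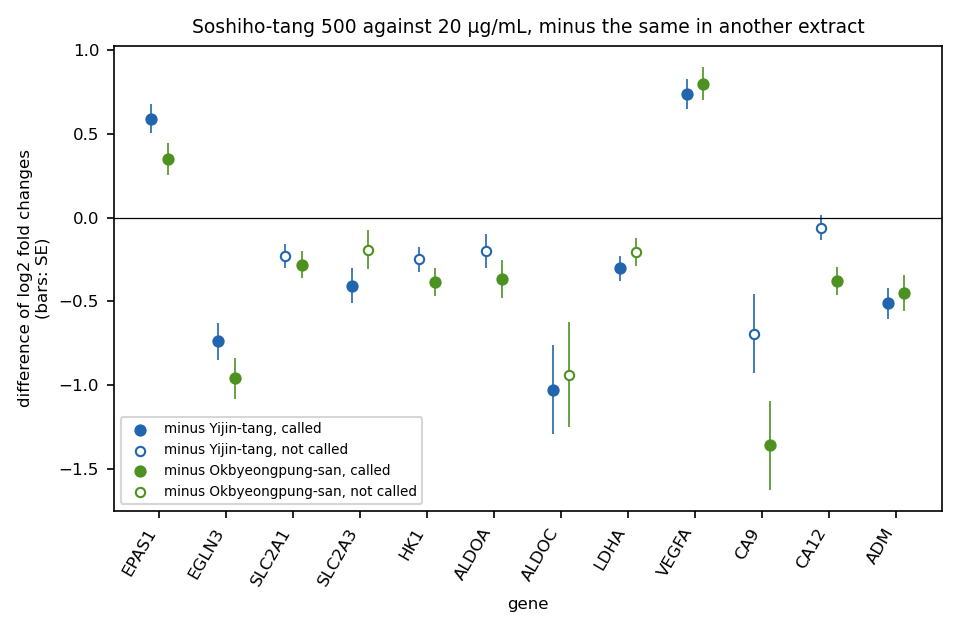
Difference of log2 fold changes (y axis; 500 against 20 µg/mL in Soshiho-tang minus the same in Yijin-tang or Okbyeongpung-san) with bars of 1 standard error, for the 12 genes (x axis) called in at least 1 of these differences. Filled points are called; VEGFA and EPAS1 lie above 0 and the other 10 genes lie below 0 against both extracts.

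Aldolase C (ALDOC), the brain-type aldolase, had the largest difference from Yijin-tang, at -1.03 (SE 0.27, adjusted p = 0.0252). In Yijin-tang it was at 3.41, 2.74 and 2.46 CPM at 500 µg/mL and at 1.91, 2.18 and 1.73 at 20 µg/mL. In Soshiho-tang it was at 1.36, 1.59 and 1.17 against 2.09, 1.83 and 1.81, so the estimates had opposite signs in the 2 extracts, and neither dose effect passed the test alone (adjusted p = 0.232 and 0.0975). ALDOC had 27 to 100 counts a library, and a same-strand protein-coding gene with no symbol overlaps it and held 4527 counts over all libraries against 1677, so the split of reads between them is uncertain. Okbyeongpung-san at 500 µg/mL gave 2.39 CPM in replicate 2 and 1.37 in replicate 3.

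At 500 µg/mL the extracts were also compared directly. Between Soshiho-tang and Yijin-tang 15 members differed, 2 higher and 13 lower in Soshiho-tang (background 12.6%, 6.31% higher and 6.29% lower). Of the 17 glycolytic enzymes 7 were lower and none higher. VEGFA (0.64, SE 0.06, adjusted p = 8.54e-08) and EPAS1 (0.58, SE 0.06, adjusted p = 1.87e-07) were the higher pair, and ALDOC (-1.06), EGLN3 (-0.81), CA9 (-0.72) and ADM (-0.51) were the lowest. Between Soshiho-tang and Okbyeongpung-san 17 differed, 5 higher and 12 lower (background 18.7%, 9.14% higher and 9.55% lower), led by EGLN3 (-1.07, SE 0.09, adjusted p = 4.14e-09), CA9 (-1.03), VEGFA (0.81) and HK2 (0.72). Within title batch E 23 differed (28% of all genes), 16 of them among the 17, and without Okbyeongpung-san replicate 2 the count was 9 (6.76% of all genes).

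Yijin-tang and Okbyeongpung-san differed at 500 µg/mL for 2 members, HK2 (0.63, SE 0.16, adjusted p = 0.0418) and P4HA1 (0.32, SE 0.06, adjusted p = 0.00465), both higher in Yijin-tang (background 2.31%, 0.853% higher and 1.45% lower). HK2 was at 1.81, 2.16 and 1.90 CPM in Yijin-tang and at 1.32 and 1.20 in Okbyeongpung-san. The count of 2 depends on single libraries: it was 8 within title batch E, 11 without Okbyeongpung-san replicate 3, 0 without its replicate 2, and 1 without Yijin-tang replicate 2 or replicate 3. The share of all genes called moved likewise, to 20.5%, 23%, 0.218%, 0.935% and 0.665%.

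Against vehicle, the question is which members moved at all. At 500 µg/mL Soshiho-tang had 8 higher and 13 lower members (background 33.1% called, 17.2% higher and 16% lower), Yijin-tang 10 and 2 (background 15.7%, 8.12% and 7.56%) and Okbyeongpung-san 4 and 2 (background 14.9%, 7.19% and 7.76%). The median log2 fold change of the members was -0.04 in Soshiho-tang, 0.13 in Yijin-tang and 0.06 in Okbyeongpung-san, where the medians of all genes were 0.011, 0.006 and 0.017. The 9 comparisons with vehicle share its 3 libraries, so their values are given side by side. Without vehicle replicate 1 the Yijin-tang count of 12 was 6 (10.7% of all genes called), and without Yijin-tang replicate 1 it was 7 (9.57%). The Okbyeongpung-san count of 6 was 12 without its replicate 3 (24.1% of all genes), 13 with all batch D libraries left out (22.2%) and 3 without vehicle replicate 1 (8.43%).

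In Soshiho-tang at 500 µg/mL, the 5 members higher than at 20 µg/mL were also higher than vehicle. Of the 16 lower ones, 11 were lower than both, and none was called in opposite directions. Both comparisons use the same Soshiho-tang libraries at 500 µg/mL, so calls in the same direction are partly built in. The share of all genes called in the same direction in both was not counted. The rest of the 16, SLC2A1, SLC16A3, PFKFB3, TPI1 and PGK1, were not called against vehicle at this dose. EGLN3 (-0.85, SE 0.08, adjusted p = 3.89e-08), SLC2A3 (-0.82, SE 0.08, adjusted p = 1.2e-08), HK2 (0.71, SE 0.16, adjusted p = 0.0017) and VEGFA (0.68, SE 0.06, adjusted p = 1.96e-08) changed most. PKM and HIF1A were lower than vehicle (-0.26 and -0.20) and PFKM, PFKP and P4HA1 higher (0.14, 0.17 and 0.17), although none of these was called between the doses. PGK1 fell between the doses and was at 0.00 (SE 0.05) against vehicle: its levels at 20 µg/mL (574 to 595 CPM) were above, and those at 500 µg/mL (499 to 512 CPM) within, the 496 to 521 CPM of vehicle.

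Several members were shifted at the lower doses too. PGK1 was higher than vehicle in 7 of the 9 comparisons, all but the 500 µg/mL groups of Soshiho-tang and Okbyeongpung-san, by 0.18 to 0.25. P4HA1 was higher in 6, all those of Soshiho-tang and Yijin-tang, by 0.17 to 0.32, and PFKFB3 in 5. HIF1A was lower in 5 and never higher: vehicle was at 516, 487 and 512 CPM, and the 27 treated libraries ran from 371 to 487, the highest level with the lowest vehicle library. Soyo-san, at 371, 439 and 452 CPM for 500, 100 and 20 µg/mL, held the lowest HIF1A library of the series. The lower doses called 2 higher and 1 lower member at 100 µg/mL of Soshiho-tang (background 10.8%, 5.57% and 5.19%) and 2 higher at 20 µg/mL (background 8.02%, 4.06% and 3.96%). Yijin-tang called 10 higher and 1 lower at 100 µg/mL (background 14.7%, 7.89% and 6.82%) and 5 higher and 1 lower at 20 µg/mL (background 10.2%, 5.09% and 5.16%). Okbyeongpung-san called 4 higher at 100 µg/mL (background 9.49%, 4.75% and 4.74%) and 4 higher at 20 µg/mL (background 10.2%, 5.21% and 4.95%), and within title batch E both of these counts were 0, with 4.05% and 2.81% of all genes called. With single libraries left out, these 6 counts ran from 0 to 7, from 1 to 3, from 2 to 10, from 1 to 9, from 0 to 3 and from 0 to 2.

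ENO2 was the only member called higher than vehicle at 500 µg/mL in all 3 replicated extracts. It was at 31.2, 31.2 and 32.3 CPM in vehicle, at 39.3, 44.8 and 43.7 in Soshiho-tang, at 38.8, 41.4 and 43.0 in Yijin-tang, at 41.0 and 40.5 in Okbyeongpung-san and at 43.0 in the single Soyo-san library. Every treated library at 500 µg/mL lay above all vehicle libraries, which also held for PFKL and PFKM. For HIF1A, SLC2A3 and KDM3A every treated library at 500 µg/mL lay below all vehicle libraries. The ENO2 rises were 0.43 (SE 0.07, adjusted p = 3.4e-05), 0.38 (SE 0.07, adjusted p = 0.000785) and 0.37 (SE 0.08, adjusted p = 0.00297) in the 3 replicated extracts. These comparisons share the vehicle libraries, and how many of all genes were called higher in all 3 was not counted. LRRC23 overlaps ENO2 on the same strand, with 12529 counts over all libraries against 31490, so the split of reads is uncertain. ALDOC (0.86, SE 0.20, adjusted p = 0.00427) and HK2 (0.62, SE 0.16, adjusted p = 0.0141) led the rises in Yijin-tang, and the largest values in Okbyeongpung-san were those of SLC2A3 (-0.67), CA9 (0.50, not called, adjusted p = 0.0697) and SLC16A3 (0.40). Across all 9 comparisons 9 members were never called: PFKL, GAPDH, ENO1, LDHB, SLC16A1, PDK1, BNIP3, ANKRD37 and KDM3A. Of all genes tested 55.1% were never called.

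ANKRD37, an ankyrin-repeat protein, had the lowest estimate against vehicle in Yijin-tang at 500 µg/mL, at -0.65 (SE 0.31, adjusted p = 0.16). It was at 0.784, 1.39 and 1.01 CPM there and at 1.31, 1.94 and 1.74 in vehicle, groups that overlap, on 23 to 43 counts a library. It overlaps UFSP2 on the opposite strand, which held 11534 counts over all libraries against 1065. CA9 was at 3.12 and 2.78 CPM in Okbyeongpung-san at 500 µg/mL and at 2.15, 2.28 and 1.83 in vehicle, which do not overlap. HK2 was at 1.26, 1.14 and 1.41 CPM in vehicle, below every library of Soshiho-tang and Yijin-tang at 500 µg/mL.

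**Figure D4:**
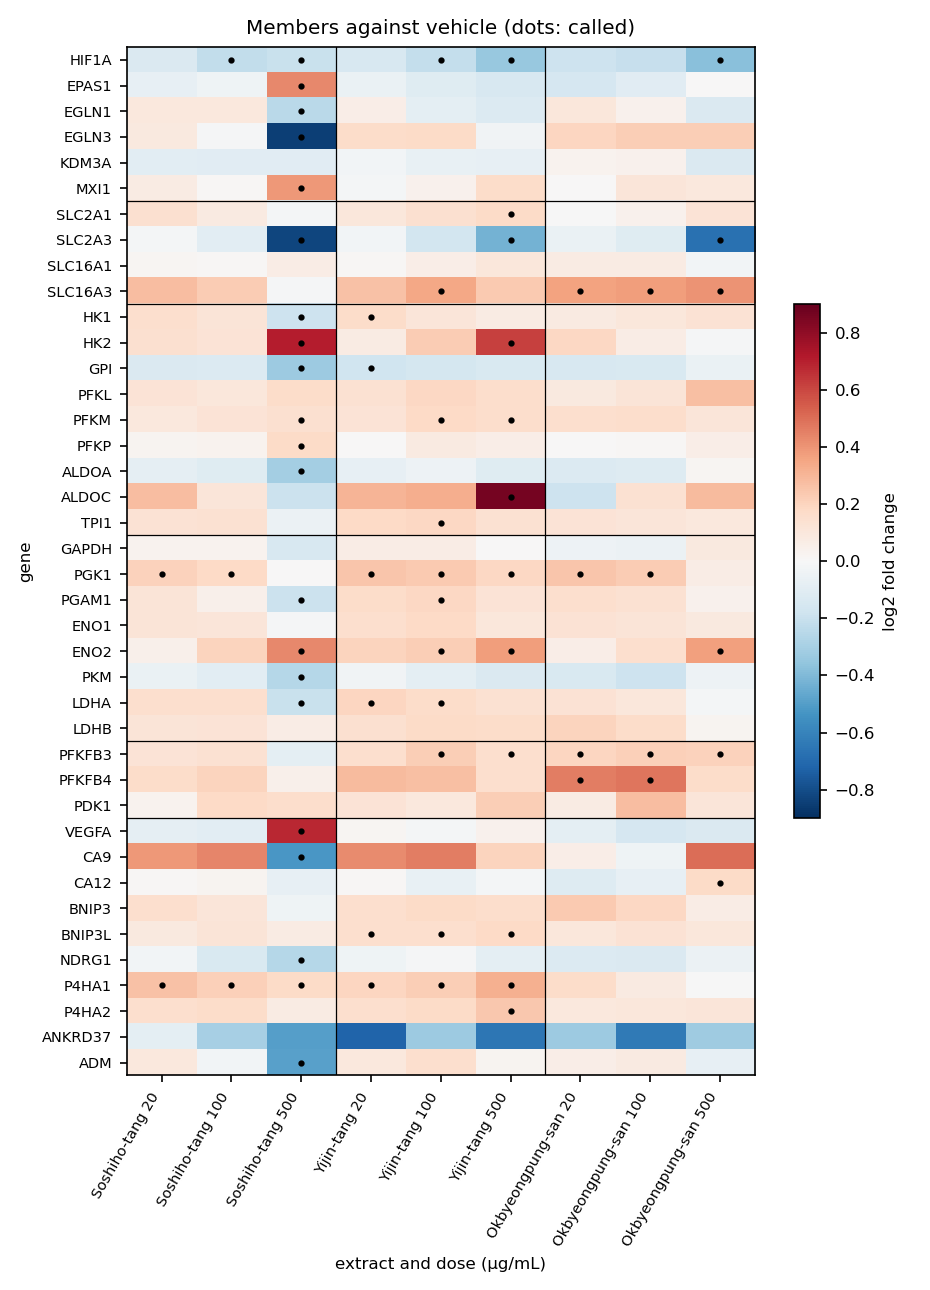
Log2 fold change against vehicle (colour, red higher and blue lower) for the 40 genes (y axis, by role) in 9 groups (x axis: extract and dose in µg/mL), with a dot where the gene was called. The 500 µg/mL column of Soshiho-tang holds 21 dots, and SLC2A3 is blue with a dot at 500 µg/mL of all 3 extracts.

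In Soyo-san, with 1 library a dose and no replicate check, the values of 9 members were in descending order from 20 through 100 to 500 µg/mL, those of 13 in ascending order and those of 18 in neither. Over all genes tested the shares were 21.4%, 24.3% and 54.2%. VEGFA was at 35.7, 35.2 and 35.7 CPM at 500, 100 and 20 µg/mL and EPAS1 at 235, 249 and 234, all within the range of the groups other than Soshiho-tang at 500 µg/mL. EGLN3 was at 11.0, 11.9 and 12.9 CPM and ADM at 50.1, 48.6 and 45.2. ALDOC was at 3.27, 2.49 and 2.30 CPM. At 500 µg/mL this lay within the Yijin-tang range (2.46 to 3.41 CPM), and at 100 and 20 µg/mL above every Yijin-tang library of the same dose.

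Other genes of these pathways gave the following counts between 500 and 20 µg/mL of Soshiho-tang, where 20.6% of all genes were called. Of 34 tested further HIF targets 7 were higher and 4 lower, with a median log2 fold change of 0.03. STC2, the secreted glycoprotein stanniocalcin 2, had the largest, at 2.66 (SE 0.06, adjusted p = 2.41e-19), from 18.7 to 20.1 CPM at 20 µg/mL to 107 to 132 at 500 µg/mL. DDIT4, an inhibitor of mTORC1 signalling, went from 194 to 228 CPM to 447 to 492, a change of 1.11. Both moved up while CA9, EGLN3 and ADM moved down.

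Of 12 tested regulators of HIF, 1 was higher (ARNT2, 0.25) and none lower. Of 15 other isozymes and regulators of glycolysis, 3 were higher and 1 lower, with PCK2, the mitochondrial enzyme that makes phosphoenolpyruvate, at 1.54 and the hexokinase-like HKDC1 at 0.89. HKDC1 was at 45.0 to 50.8 CPM at 500 µg/mL and 24.9 to 28.4 at 20 µg/mL. The 28 genes of pyruvate entry and the citric acid cycle gave 1 higher and 6 lower, among them the pyruvate carrier subunit MPC2 (-0.44) and the kinase PDK2 (-0.43). Of the 7 pentose phosphate genes 1 was lower, transketolase TKT at -0.36. Of 14 glycogen genes 3 were higher and 1 lower, with the phosphorylase PYGB at 0.64 and the synthase GYS1 at -0.33. Of 4 genes of glucose sensing 1 was lower, MLXIP at -0.25. Of the 13 mitochondrial mRNAs 1 was lower (MT-CO3, -0.35) in this comparison, and 12 were lower in Soshiho-tang at 500 µg/mL against vehicle.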

How the data were processed

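RNA of A549 cells was measured in 30 libraries, in the 13 groups given by the sample labels. Per the labels' protocols, directional mRNA libraries were read as 100 bp pairs. The authors deposited expected counts per gene. Tools listed in the submitters' processing notes are RSEM 1.3.3, STAR 2.7.3a, Trim Galore 0.6.5 and FastQC 0.11.9, and the builds are GRCh38 and hg38. Neither the gene annotation release nor the strand setting is given in the sources used here, so genes that overlap another have uncertain counts. The table had 30 empty columns, which were not used. Between 9.09% and 11.6% of a library's values were not whole, and all were rounded.

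Symbols came from the supplied name table (56558 identifiers matched), and positions and transcript lengths from GENCODE release 29 (57055 matched). All 27 libraries other than Soyo-san, in 10 groups, entered 1 fit in edgeR 4.0.16 (R 4.3.3), with TMM, filterByExpr and the quasi-likelihood F test. A gene was called when its p, adjusted by Benjamini-Hochberg over the 17459 genes tested, was below 0.05, in 17 comparisons. SE was taken as the size of the log2 fold change over the square root of the F statistic. The common dispersion was 0.00474, a coefficient of variation of 6.89%. CPM are counts over TMM-adjusted totals. The fit was tested on simulated data.

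The members, other gene lists, comparisons and settings were chosen with earlier results of these data known. Every member could be named. Library values are given for those called between 500 and 20 µg/mL or changed by at least 0.5 (log2) against vehicle at 500 µg/mL, and for HIF1A, EPAS1, GAPDH, LDHA and VEGFA. From each other list the 2 called genes with the largest change and a mean log2 CPM of at least 2 are named, and promoters follow the same order. Alternatives were RLE size factors, no filter, DESeq2 1.42.0, only the compared groups in the fit, a replicate block, an offset for length and GC content, and each library left out. Fits within a title batch were added after the data were seen, and each leaves 1 Okbyeongpung-san library a dose. Further treatments named in the series text were not used here.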

Additional observations from a re-analysis of the deposited data

Results flagged for a closer look

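The dose effect of 500 against 20 µg/mL differed between Soshiho-tang and another extract for 12 members, by a test of the difference of log2 fold changes in edgeR. Against Yijin-tang the difference was 0.74 for VEGFA (SE 0.09, adjusted p = 7.2e-06) and 0.59 for EPAS1 (SE 0.08, adjusted p = 6.71e-05). It was -0.74 for EGLN3 (SE 0.11, adjusted p = 0.00011), -0.51 for ADM (SE 0.09, adjusted p = 0.00138) and -0.3 for LDHA (SE 0.07, adjusted p = 0.0189). For SLC2A3 it was -0.41 (SE 0.1, adjusted p = 0.0227), where both extracts fell and Soshiho-tang fell further. For ALDOC it was -1.03 (SE 0.27, adjusted p = 0.0252), on 27 to 100 counts a library.

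Against Okbyeongpung-san the difference was 0.8 for VEGFA (SE 0.1, adjusted p = 1.39e-05) and 0.35 for EPAS1 (SE 0.09, adjusted p = 0.0241). It was -0.96 for EGLN3 (SE 0.12, adjusted p = 1.4e-05), -1.36 for CA9 (SE 0.26, adjusted p = 0.00193) and -0.45 for ADM (SE 0.11, adjusted p = 0.00958). The constitutive hexokinase HK1 was at -0.39 (SE 0.08, adjusted p = 0.00465), CA12 at -0.38 (SE 0.08, adjusted p = 0.00635), SLC2A1 at -0.28 (SE 0.08, adjusted p = 0.0366) and ALDOA at -0.37 (SE 0.11, adjusted p = 0.0462). For CA12 the difference holds a rise in Okbyeongpung-san and no called change in Soshiho-tang.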

How the results depend on the processing

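Of the 21 members called between 500 and 20 µg/mL of Soshiho-tang, EPAS1, SLC2A3, HK1, PGK1, PGAM1, ENO2, LDHA, PFKFB3, VEGFA, CA9, EGLN1, EGLN3 and ADM kept their call and direction under all 12 alternatives, and no called value of the 40 changed sign in any comparison under any of them. Of the 19 not called, BNIP3 was called under 6 alternatives, PKM under 5, PFKP under 4, GAPDH under 3 and ALDOC, ENO1 and P4HA1 under 1 each. Whether the replicate numbers pair the libraries is not settled. Same-numbered libraries correlated at -0.191 to 0.254 in their deviations from group means, above 0.1 in 6 of 39 pairs. Of the 39, 22 matched their own number best, and this check did not compare 100 with 20 µg/mL. With the replicate block 6 members were called at 100 µg/mL of Soshiho-tang against vehicle, where 3 were without it, and the other 16 counts stayed within 1.5 times.

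With the length and GC offset the counts against vehicle were 9 and 7 (Soshiho-tang at 100 and 20 µg/mL), 14 (Yijin-tang at 20) and 8 and 7 (Okbyeongpung-san at 100 and 20), and 2 for 500 against 20 µg/mL of Yijin-tang, 23 for Soshiho-tang against Yijin-tang, 4 for Yijin-tang against Okbyeongpung-san and 13 for the dose effect against Yijin-tang. With only the compared groups in the fit they were 10 (Soshiho-tang at 20), 24 and 1 (Yijin-tang at 500 and 20), 3, 21 and 19 (Okbyeongpung-san at 500, 100 and 20), 0 for 500 against 20 µg/mL of Yijin-tang and of Okbyeongpung-san, 5 for Soshiho-tang and 0 for Yijin-tang against Okbyeongpung-san, and 5 for the dose effect against it. DESeq2 gave 7 for Okbyeongpung-san at 20 µg/mL and 12 for the dose effect against Yijin-tang, and without the filter Yijin-tang and Okbyeongpung-san differed for 1. Within title batch E the counts against vehicle were 13, 0 and 0 for Okbyeongpung-san, with 4 between its doses (0 within batch D) and 8 against Yijin-tang. The cause of these moves was not tested.

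With single libraries left out, counts ran from 16 to 20, 0 to 7 and 1 to 3 (Soshiho-tang at 500, 100 and 20 µg/mL against vehicle), 6 to 10, 2 to 10 and 1 to 9 (Yijin-tang), 3 to 12, 0 to 3 and 0 to 2 (Okbyeongpung-san). They ran from 15 to 21, 1 to 1 and 1 to 14 between the doses of these extracts, 10 to 13, 9 to 24 and 0 to 11 between extracts at 500 µg/mL, and 5 to 7 and 3 to 16 for the dose effects. Vehicle replicate 1 moved the most counts against vehicle by over 1.5 times: without it they were 0 and 1 (Soshiho-tang at 100 and 20 µg/mL), 6, 2 and 1 (Yijin-tang) and 3, 2 and 2 (Okbyeongpung-san). Without vehicle replicate 2 they were 1 (Soshiho-tang at 20), 5 and 1 (Yijin-tang at 100 and 20) and 0 and 1 (Okbyeongpung-san at 100 and 20), and without replicate 3 they were 1 (Soshiho-tang at 100), 5 and 2 (Yijin-tang at 100 and 20) and 2 (Okbyeongpung-san at 20). Without Soshiho-tang replicates 1, 2 and 3 at 100 µg/mL the count was 1, 0 and 7, and without its replicate 1 or 2 at 20 µg/mL it was 1. Without Yijin-tang replicate 3 at 100 µg/mL it was 3, and without replicate 2 or 3 at 20 µg/mL it was 2. Without Okbyeongpung-san replicates 2 and 3 it was 1 and 0 at both 100 and 20 µg/mL. HK2, CA9, ALDOC and ANKRD37 had few counts, which limits their precision.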
